A study of Mus musculus with 12 samples.

Results

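The mitochondrial genome encodes core subunits of the respiratory chain, and 9 of its protein-coding genes were listed for study here by symbol: mt-Nd1, mt-Nd2, mt-Nd4, mt-Nd5, mt-Co1, mt-Co2, mt-Co3, mt-Cytb and mt-Atp6. Of these 9, 6 were matched by name among the 21783 genes of the deposited count table and are described below. mt-Co2, mt-Co3 and mt-Atp6 were not analysed here. A further 3 mitochondrial genes in the table, mt-Nd3, mt-Nd4l and mt-Nd6, were used for comparison.

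The samples were hearts from female mouse embryos taken at embryonic day 10.5, pooled 20 to a sample, with 3 pools of each genotype. The Ddx3x CM-KO hearts were bred to lack the X-linked RNA helicase gene Ddx3x in cardiomyocytes, and embryos were genotyped for Tnnt2-Cre, a recombinase under a cardiomyocyte troponin promoter. The WT hearts were Ddx3x fl/fl, that is, they carried the loxP-flanked gene without deletion. Each pool gave an RNA library and a library of ribosome-protected footprints, the short RNA pieces left after RNase I digestion of RNA covered by ribosomes. All cell types of the heart entered a pool, including those in which the Cre driver is not active.

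Mitochondrial mRNAs are cut out of long transcripts that run around the circular genome on each strand, and most are released where a tRNA between them is excised. They are then matured, stabilised and translated inside the organelle by mitochondrial ribosomes, whose RNAs are mitochondrial and whose proteins are made in the cytosol and imported. Complex I (NADH dehydrogenase), complex III (cytochrome bc1), complex IV (cytochrome c oxidase) and complex V (ATP synthase) therefore each need subunits from both genomes. The heart depends on this chain for most of its ATP after birth, and its mitochondria mature during embryonic life.

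The listed genes lie on the plus strand of the mitochondrial chromosome of GRCm39 (mm39) and have no introns. The complex I genes are mt-Nd1 at chrM:2751-3707, mt-Nd2 at chrM:3914-4951, mt-Nd4 at chrM:10167-11544 and mt-Nd5 at chrM:11742-13565. The complex IV gene mt-Co1 lies at chrM:5328-6872, and the complex III gene mt-Cytb at chrM:14145-15288. The first 30 bases of each are shown because they carry the start codon (in capitals) at which a mitochondrial ribosome begins. They were read 5′ to 3′ from the GRCm39 sequence at these positions. Start codons other than ATG stand in 3 of the 6 genes.
mt-Nd1: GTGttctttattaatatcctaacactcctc
mt-Nd2: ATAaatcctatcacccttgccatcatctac
mt-Nd4: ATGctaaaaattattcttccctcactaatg
mt-Nd5: ATCaatattttcacaacctcaatcttatta
mt-Co1: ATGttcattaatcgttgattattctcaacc
mt-Cytb: ATGacaaacatacgaaaaacacacccatta

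The last 30 bases of mt-Nd4 and mt-Cytb are shown because both genes end in an incomplete stop codon, a single T (in capitals) that polyadenylation of the mRNA completes, and that of mt-Co1 because it ends in a full stop codon.
mt-Nd4: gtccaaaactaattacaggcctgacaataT
mt-Cytb: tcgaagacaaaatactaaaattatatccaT
mt-Co1: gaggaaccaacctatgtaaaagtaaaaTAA

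Among the mitochondrial protein-coding genes in the table, neighbours share bases at 2 places, shown with the shared bases in capitals on the plus strand. mt-Nd1, mt-Nd2 and mt-Co1 also share 2, 2 and 3 bases at their ends with neighbouring tRNA genes. mt-Nd4l and mt-Nd4 are read from the same strand, have no tRNA gene between them and share 7 bases, within chrM:10156-10185. mt-Nd5 and mt-Nd6 lie on opposite strands and share 14 bases, within chrM:13544-13573. No source used here gives the strand setting of the authors' counting, so reads over these bases cannot be assigned by it.
mt-Nd4l and mt-Nd4: aacctactacaATGCTAAaaattattcttc
mt-Nd5 and mt-Nd6: atactcaaTTAATCTCGAGTAAtctcgata

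Nuclear copies of mitochondrial DNA share exact sequence with some of these genes and not with others. Every stretch of 30 bases in each gene was searched on both strands of the nuclear chromosomes of GRCm39. No such window of mt-Nd1 had an exact copy, against 7.35% of the windows of mt-Cytb, 14.2% of mt-Nd2, 17.8% of mt-Nd5, 63.2% of mt-Nd4 and 64.8% of mt-Co1. Among the comparison genes the copied share was 8.37% for mt-Nd6, 99.1% for mt-Nd3 and 100% for mt-Nd4l. The longest nuclear stretch lay on chromosome 1, chr1:24650616-24655265, and spanned 4650 bases. No source used here says how the authors' pipeline treated reads that match several places, so the counts of mt-Co1, mt-Nd4, mt-Nd3 and mt-Nd4l are less certain as levels than those of mt-Nd1 and mt-Cytb. Of the nuclear genes that overlap such stretches, Myo3a, Stxbp4, Zfp804b and Zdhhc3 were tested, and none passed in RNA, in footprints or in the ratio, with RNA log2 fold changes of -0.06, -0.06, -0.08 and -0.07. Their counts cover the whole gene, so they cannot show whether reads from the copied stretches changed. No gene that overlaps the chromosome 1 stretch was among those counted.

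**Figure D1:**
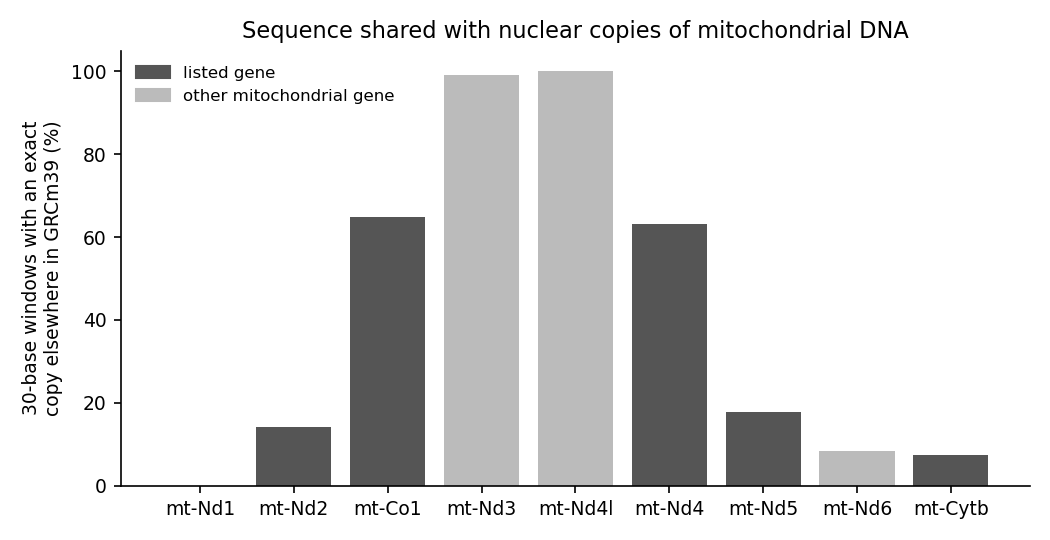
Share of 30-base windows of each mitochondrial protein-coding gene in the table that have an exact copy in the nuclear genome (vertical axis, %; genes in genome order on the horizontal axis). Dark bars are listed genes and light bars the other mitochondrial genes. mt-Nd1 stands at 0, mt-Co1 and mt-Nd4 at 64.8% and 63.2%, and mt-Nd3 and mt-Nd4l at 99.1% and 100%.

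The depth was 14.7 to 19.9 M gene counts per RNA library and 7.31 to 14.3 M per footprint library. Ddx3x RNA had 4418, 3251 and 3781 counts in the CM-KO pools, against 4348, 5608 and 6227 in the WT pools, a log2 difference of -0.34 ± 0.10 (SE; adjusted p = 0.0883 by edgeR), so the targeted gene did not reach the threshold in these whole hearts. The Y-linked gene Ddx3y had 106, 64 and 4 RNA counts in the CM-KO pools, against 2, 2 and 0 in the WT pools, although all pools are labelled female. The cardiomyocyte markers summed to between 18382 and 19684 CPM, counts scaled to a common library size, of RNA in the CM-KO pools, against 16271 to 18306 CPM in the WT pools, and 2 of 8 passed as higher and 1 as lower. The erythroid markers summed to between 12520 and 15724 CPM of RNA in the CM-KO pools, against 8624 to 13854 CPM in the WT pools, and 2 of 7 passed as higher. Over all genes tested in RNA, 3.57% passed as higher and 0.805% as lower in CM-KO hearts. In footprints the erythroid sum was 69057 to 88445 CPM in the CM-KO pools, against 42732 to 56897 CPM in the WT pools, with no overlap. None of the tested markers of endocardial and endothelial, epicardial, cushion mesenchyme, liver and yolk sac, neural or macrophage cells passed in either assay (the neural marker Sox2 was not analysed here). Only 2 of 4 macrophage markers and 6 of 7 liver and yolk sac markers were tested. The liver and yolk sac sum varied widely in RNA, from 49.1 to 326 CPM in the CM-KO pools and from 93.8 to 436 CPM in the WT pools. In footprints the sums of neural markers, 46.3 to 51.7 CPM in the CM-KO pools against 33.7 to 38.0 CPM in the WT pools, and of macrophage markers, 13.8 to 16.6 CPM in the CM-KO pools against 6.99 to 11.96 CPM in the WT pools, also did not overlap. Of single genes tested in footprints, 1180 of 15249 had every CM-KO pool above every WT pool. All CPM here are scaled by the trimmed mean of M-values (TMM).

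The 6 genes were among the most abundant mRNAs of the heart. Together they took 2.09%, 2.15% and 2.49% of the RNA counts in CM-KO pools 1 to 3, against 4.62%, 3.67% and 3.04% in WT pools 1 to 3. Of the footprint counts they took 2.95%, 2.42% and 2.23% in the CM-KO pools, against 3.21%, 2.92% and 3.14% in the WT pools. The RNA shares did not overlap between genotypes, whereas the footprint share of CM-KO pool 1 lay above that of WT pool 2.

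Per base of gene length, mt-Co1, the catalytic subunit of complex IV, had the highest RNA level of the 6. It averaged 34390 ± 2403 TPM (counts per base of gene length, scaled to the same total in each library) in CM-KO hearts and 49120 ± 5358 TPM in WT hearts (SD, n = 3 each), which ranked 3 and 2 among the 21594 genes with an annotated length. mt-Nd1 came next with 21584 ± 1959 TPM in CM-KO hearts and 36656 ± 6712 TPM in WT hearts, and then mt-Cytb with 11228 ± 1671 TPM in CM-KO hearts and 21568 ± 5000 TPM in WT hearts. mt-Nd4 was the lowest, at 1605 ± 285 TPM in CM-KO hearts and 3017 ± 852 TPM in WT hearts. mt-Nd5 and mt-Nd2 lay between them and were close together: mt-Nd5 ranged from 3653 to 4530 TPM in the CM-KO pools and from 5169 to 8872 TPM in the WT pools, and mt-Nd2 from 2909 to 3628 TPM in the CM-KO pools and from 4658 to 8415 TPM in the WT pools. The ranges of these 2 genes overlapped in WT hearts.

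In footprints per base of length mt-Cytb, the only complex III subunit that the mitochondrial genome encodes, was the highest of the 6. It averaged 12241 ± 615 TPM in CM-KO hearts and 16424 ± 1222 TPM in WT hearts, rank 5 among all genes in each genotype. mt-Co1 followed at 9263 ± 666 TPM in CM-KO hearts and 11312 ± 743 TPM in WT hearts. mt-Nd1, mt-Nd5 and mt-Nd2 averaged 6591, 5362 and 4919.7 TPM in CM-KO hearts, and 8119, 7356 and 6313 TPM in WT hearts. Neighbours among these 3 overlapped in their ranges over WT pools, and mt-Nd5 and mt-Nd2 also over CM-KO pools. mt-Nd4 was again the lowest, at 1986 ± 73.1 TPM in CM-KO hearts and 2561 ± 104 TPM in WT hearts. These ranks depend on the length used: with the number of 30-base windows that have no nuclear copy as length, mt-Co1 led in footprints too, at 26850.2 TPM against 13557 TPM for mt-Cytb in CM-KO hearts and 32791 TPM against 18189 TPM in WT hearts. In RNA, mt-Nd4 then lay above mt-Nd2, at 4459 TPM against 3845 TPM in CM-KO hearts and 8381 TPM against 7576 TPM in WT hearts. This length presumes that reads matching nuclear copies were not counted, which no source used here states, so these ranks hold only under that condition. It leaves mt-Nd3 only 3 windows. The RNA of mt-Nd3 would then stand at 666892 TPM in CM-KO hearts and 894599 TPM in WT hearts.

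The first comparison asked whether deletion of Ddx3x in cardiomyocytes altered the amount of each mRNA. RNA of all 6 genes was lower in CM-KO hearts, at 49.7 to 68.9% of the WT mean, and in each gene every CM-KO pool lay below every WT pool. Of the 6, mt-Nd1, mt-Cytb and mt-Co1 passed the test (edgeR quasi-likelihood test, Benjamini-Hochberg adjusted p under 0.05 over 17147 genes), and mt-Nd2, mt-Nd4 and mt-Nd5 did not. Over all genes tested, 0.805% were called lower and 8.42% had every CM-KO pool below every WT pool. The median log2 fold change was -0.90 over the 6 genes and 0.01 over all genes. In bulk hearts, less mitochondrial RNA per cell and fewer cells rich in mitochondria cannot be told apart.

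Among the complex I genes, mt-Nd1, a membrane-arm subunit next to the quinone site, had 4349, 4704 and 5177 CPM of RNA in the CM-KO pools, against 10194, 7857 and 6547 CPM in the WT pools. The highest CM-KO pool thus lay below the lowest WT pool, and the log2 fold change was -0.79 (SE 0.15, adjusted p = 0.0160 by edgeR).
mt-Nd2, a proton-pumping subunit, had 683, 755 and 856 CPM in the CM-KO pools, against 2137, 1383 and 1098 CPM in the WT pools. Its log2 fold change of -1.01 was the largest in size of the 6, but the WT pools alone spanned 1098 to 2137 CPM and it did not pass (SE 0.24, adjusted p = 0.0855 by edgeR).
mt-Nd4, another pumping subunit, had 416, 512 and 596 CPM in the CM-KO pools, against 1299, 950.0 and 673 CPM in the WT pools (log2 fold change -0.94, SE 0.26, adjusted p = 0.124 by edgeR). mt-Nd5, at the far end of the membrane arm, had 1507, 1601 and 1878 CPM in the CM-KO pools, against 3959, 2969 and 2141 CPM in the WT pools (log2 fold change -0.86, SE 0.21, adjusted p = 0.0663 by edgeR). WT pool 3 came closest to the CM-KO pools in each of these 4 genes.

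The complex III gene mt-Cytb had 2499, 2976 and 3375 CPM of RNA in the CM-KO pools, against 7473, 5509.9 and 4341 CPM in the WT pools. Its means were 2950.4 ± 439 CPM in CM-KO hearts and 5774 ± 1583 CPM in WT hearts (SD, n = 3 each), a log2 difference of -0.97 (SE 0.19, adjusted p = 0.0273 by edgeR). The complex IV gene mt-Co1 had 12173, 11576 and 12831 CPM in the CM-KO pools, against 20635, 17084 and 15393 CPM in the WT pools. Its log2 fold change of -0.54 (SE 0.12, adjusted p = 0.0303 by edgeR) was the smallest in size of the 6.

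**Figure D2:**
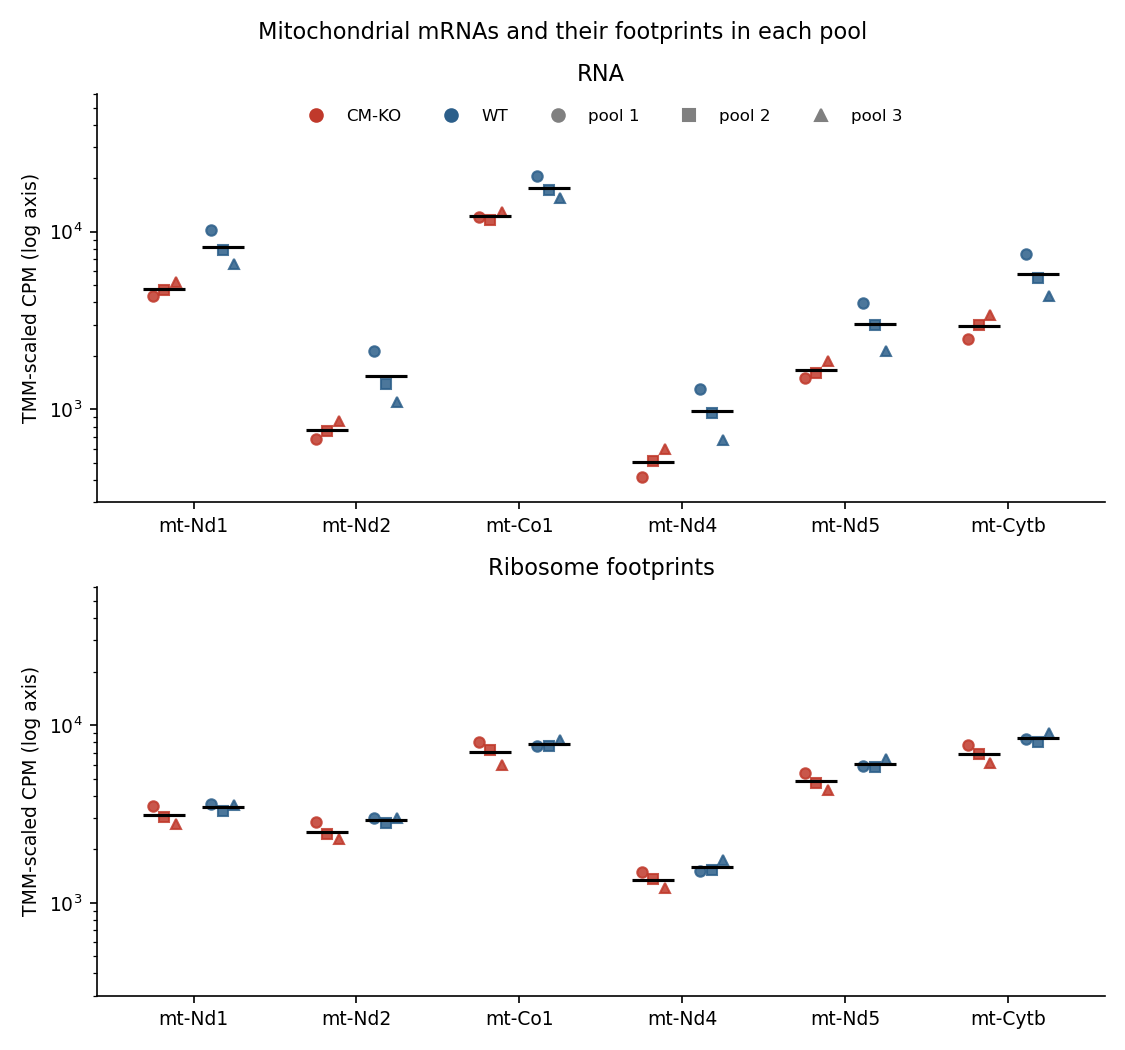
RNA level (top) and footprint level (bottom) of the 6 genes in each pool, in TMM-scaled CPM on a log axis; for each gene CM-KO pools (red) stand left of WT pools (blue), marker shapes give the pool number and black lines the means of 3 pools. In RNA every CM-KO pool lies below every WT pool (mt-Cytb 2499 to 3375 against 4341 to 7473 CPM), while in footprints the genotypes lie close together (mt-Cytb 6142 to 7705 against 7995 to 9046 CPM).

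The number of RNA calls among the 6 genes depended on single pools, while the direction did not. Leaving pools out could hardly turn the direction, since no CM-KO pool overlapped a WT pool. With CM-KO pool 2 left out none passed (adjusted p = 0.0915 for mt-Nd1), with CM-KO pool 1 or WT pool 2 left out 1 passed, with WT pool 1 left out 5 passed and with WT pool 3 left out all 6 passed. CM-KO pool 3, the CM-KO pool with the fewest Y-linked reads, gave log2 fold changes of -0.46 to -0.85 when set alone against WT, and none passed. In the same RNA libraries the cardiomyocyte sum was higher in every CM-KO pool than in any WT pool, but CM-KO pool 3 and WT pool 1 nearly met (18382 and 18306 CPM). Of single genes tested in RNA, 2284 of 17147 had every CM-KO pool above every WT pool. The erythroid sums overlapped. The part of either cell type in the difference was not tested. In the authors' deposited table, the RNA log2 fold changes of the 6 genes ranged from -0.55 to -1.02, with adjusted p-values between 1.93e-07 and 0.0369.

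None of the comparison genes passed in RNA. The level of mt-Nd6, the only protein-coding gene on the minus strand and also a complex I subunit, averaged 743 ± 21.1 CPM in CM-KO hearts and 951 ± 118 CPM in WT hearts (SD, n = 3 each), a log2 fold change of -0.36 whose adjusted p was 0.0618 by edgeR. For mt-Nd3, a small complex I subunit, the log2 fold change was -0.45, with an adjusted p of 0.0848 by edgeR. In both genes every CM-KO pool lay below every WT pool. mt-Nd4l had only 19 to 54 RNA counts per CM-KO pool and 27 to 67 per WT pool (log2 fold change -0.40, adjusted p = 0.801 by edgeR).

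The second comparison asked whether ribosome footprints on the same mRNAs differed. Footprints of all 6 genes averaged 79.9 to 90.0% of the WT mean in CM-KO hearts, and none passed the test (edgeR quasi-likelihood test, adjusted p of 0.376 to 0.817), with 3 of the 6 at an unadjusted p under 0.05. Over all 15249 genes tested, 0.23% were called in either direction and 8.86% had an unadjusted p under 0.05. DESeq2 called 1 of the 6, mt-Nd5 (adjusted p = 0.0470), and 1.11% of all genes. The median log2 fold change was -0.23 over the 6 genes and -0.01 over all genes.

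mt-Nd5 had 5391, 4754 and 4335 CPM of footprints in the CM-KO pools, against 5914, 5781 and 6425 CPM in the WT pools (log2 fold change -0.32, 95% interval -0.56 to -0.08).
mt-Cytb had 7705, 6894 and 6142 CPM in the CM-KO pools, against 8335, 7995 and 9046 CPM in the WT pools (log2 fold change -0.29, 95% interval -0.54 to -0.04).
mt-Nd4 had 1481, 1355 and 1214 CPM in the CM-KO pools, against 1508, 1522 and 1748 CPM in the WT pools (log2 fold change -0.24, 95% interval -0.47 to -0.01). In these 3 genes every CM-KO pool lay below every WT pool, as in 7.05% of all genes tested.

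The footprint ranges of the other 3 genes overlapped between genotypes. mt-Nd1 had 3525, 3051 and 2766 CPM in the CM-KO pools, against 3615, 3303 and 3538 CPM in the WT pools (log2 fold change -0.16). mt-Nd2 had 2858, 2427 and 2274 CPM in the CM-KO pools, against 3009, 2799 and 3018 CPM in the WT pools (log2 fold change -0.22). mt-Co1 had 8032, 7229 and 5981 CPM in the CM-KO pools, against 7659.7, 7644 and 8296 CPM in the WT pools (log2 fold change -0.15), and CM-KO pool 1 lay above WT pools 1 and 2. CM-KO pool 1 was the highest and CM-KO pool 3 the lowest of the CM-KO pools in footprints of all 6 genes. Erythroid markers took more of the footprint libraries in the CM-KO pools, with the sums given above, and their part in these levels was not tested.

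**Figure D3:**
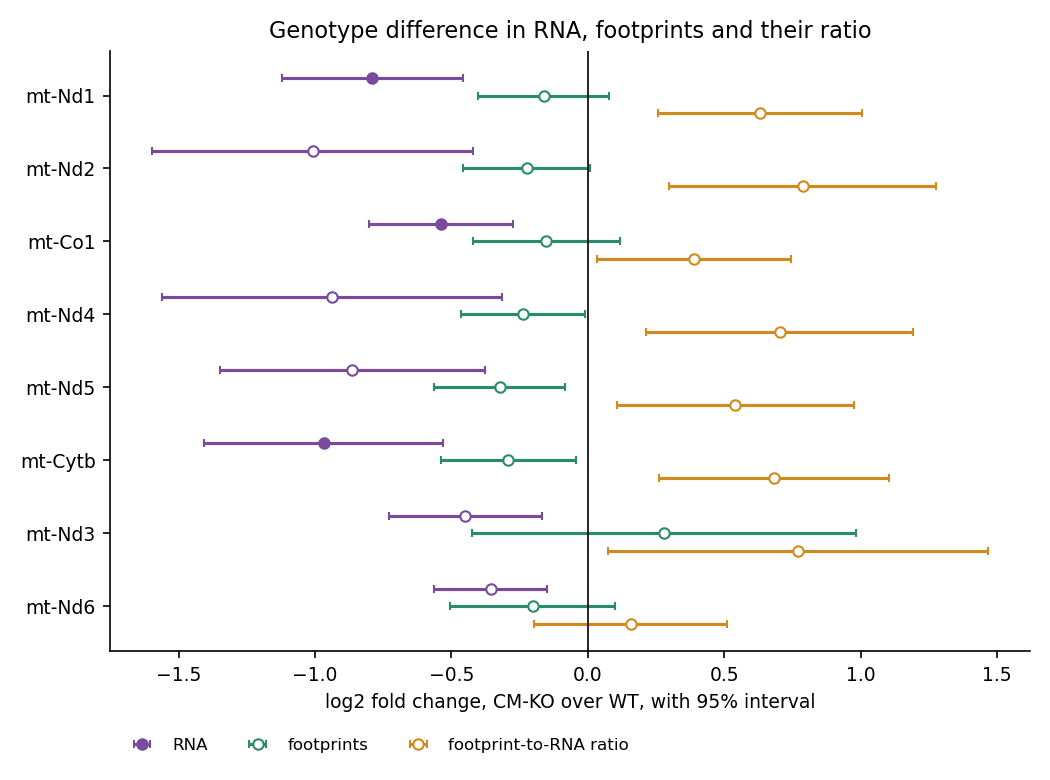
Log2 fold change of CM-KO over WT (horizontal axis) with its 95% interval for RNA, footprints and the footprint-to-RNA ratio of the 6 genes and of mt-Nd3 and mt-Nd6 (rows); filled points passed the test at adjusted p under 0.05. RNA values of the 6 genes lie at -1.01 to -0.54, footprint values at -0.32 to -0.15 and ratio values at 0.39 to 0.79, and only mt-Nd1, mt-Co1 and mt-Cytb in RNA are filled.

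The third comparison set the change in footprints against the change in RNA, as the interaction of genotype and assay over all 12 libraries. The ratio of footprints to RNA was higher in CM-KO hearts in each of the 6 genes, by 0.39 (mt-Co1) to 0.79 (mt-Nd2) on the log2 scale, but none passed (edgeR quasi-likelihood test, adjusted p of 0.154 to 0.679). All 6 had an unadjusted p under 0.05, and DESeq2 called 2, mt-Nd1 (adjusted p = 0.0329) and mt-Nd2 (adjusted p = 0.0418). Over the 15231 genes tested, edgeR called 0.84% in either direction, 1 gene higher and 127 lower in CM-KO hearts. DESeq2 called 0.538% in either direction, 80 genes lower and 2 higher, the latter being mt-Nd1 and mt-Nd2 themselves. In edgeR 6.21% had an unadjusted p under 0.05 in either direction. The median log2 fold change of the ratio was 0.66 over the 6 genes and -0.01 over all genes. With the pool as a block, which pairs the 2 libraries made from the same hearts, 226 genes were called in place of 128, and still none of the 6 (adjusted p = 0.0547 for mt-Nd1 and 0.0599 for mt-Nd2).

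On the log2 scale, the footprint-to-RNA ratio of mt-Nd1 was 0.04, -0.24 and -0.43 in the CM-KO pools, against -1.05, -0.81 and -0.59 in the WT pools, and that of mt-Nd2 was 2.41, 2.07 and 1.89 in the CM-KO pools, against 0.94, 1.45 and 1.76 in the WT pools. In these 2 genes every CM-KO pool lay above every WT pool, as in 3.83% of all genes tested. The other 4 overlapped. For mt-Cytb the ratio was 1.97, 1.60 and 1.34 in the CM-KO pools, against 0.60, 0.97 and 1.36 in the WT pools, so that CM-KO pool 3 and WT pool 3 met. mt-Nd4 had 2.17, 1.79 and 1.51 in the CM-KO pools, against 0.66, 1.12 and 1.68 in the WT pools, and mt-Nd5 had 2.18, 1.96 and 1.69 in the CM-KO pools, against 1.02, 1.40 and 1.88 in the WT pools. In both genes WT pool 3 lay above CM-KO pool 3. mt-Co1 had -0.26, -0.29 and -0.62 in the CM-KO pools, against -0.99, -0.72 and -0.59 in the WT pools. Without WT pool 3, 2 of the 6 passed, mt-Nd2 (adjusted p = 0.0475 by edgeR) and mt-Nd4 (adjusted p = 0.0211 by edgeR). Among the 15577 genes tested in that fit these were the only 2 called higher, and 111 were called lower. In the authors' deposited table the occupancy log2 fold change of mt-Nd1 was 0.63 with an adjusted p of 0.0375, and those of the other 5 genes had adjusted p-values of 0.0808 to 0.496.

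The level of the ratio split the 6 genes into 2 sets in every pool, whatever the genotype. mt-Nd2, mt-Nd4, mt-Nd5 and mt-Cytb had log2 ratios of 2.12 ± 0.26, 1.82 ± 0.34, 1.94 ± 0.25 and 1.64 ± 0.31 in CM-KO hearts, and 1.38 ± 0.41, 1.15 ± 0.51, 1.44 ± 0.43 and 0.98 ± 0.38 in WT hearts (SD, n = 3 each). mt-Nd1 and mt-Co1 had -0.21 ± 0.23 and -0.39 ± 0.20 in CM-KO hearts, and -0.82 ± 0.23 and -0.77 ± 0.20 in WT hearts. The lowest of the first 4 lay above the highest of the other 2 by 1.77 to 1.93 in the CM-KO pools and by 1.59 to 1.95 in the WT pools. The first 4 ranked above 95.2 to 98.7% of the 15231 genes in CM-KO hearts and above 85.7 to 93.6% in WT hearts, whereas mt-Nd1 and mt-Co1 ranked above 48.2% and 40.1% in CM-KO hearts and above 23.2% and 24.5% in WT hearts. These are descriptions with no test, since genes of a pool share its libraries. The ranks set genes translated by mitochondrial ribosomes against nuclear genes, and whether footprints of both kinds are recovered alike was not tested. The ratios used the counts as given, with no allowance for nuclear copies. Whether reads matching such copies were counted alike in RNA and footprints was not tested, which matters most for mt-Co1 and mt-Nd4.

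The 2 sets were formed from these values, and whether any feature of the genes bears on the split was not tested. The low-ratio genes belong to complexes I and IV and begin with GTG and ATG, and the high-ratio genes belong to complexes I and III and begin with ATA, ATG or ATC, as printed above. The low-ratio genes held 0% (mt-Nd1) and 64.8% (mt-Co1) of copied windows, and the high-ratio genes between 7.35% (mt-Cytb) and 63.2% (mt-Nd4). The low-ratio genes had the highest RNA levels per length of the 6 genes, and RNA is also the denominator of the ratio.

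**Figure D4:**
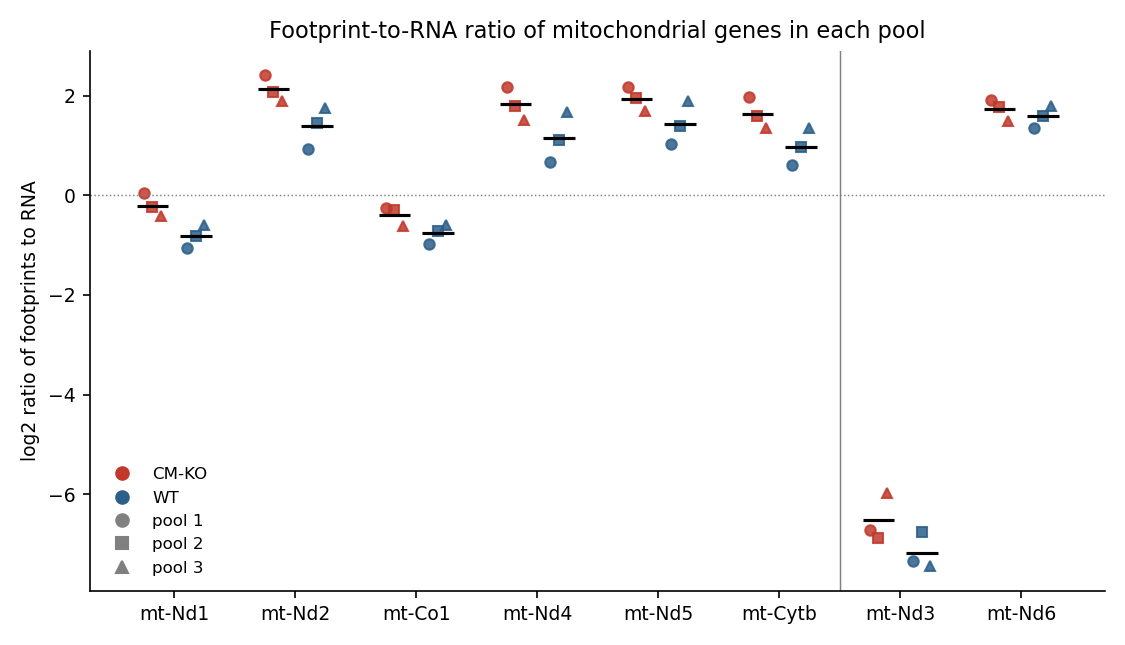
Log2 ratio of footprints to RNA (vertical axis) in each pool for the 6 genes and, right of the vertical line, for mt-Nd3 and mt-Nd6; CM-KO pools (red) stand left of WT pools (blue), marker shapes give the pool number and black lines the means of 3 pools. mt-Nd1 and mt-Co1 lie between -1.05 and 0.04, the other 4 genes between 0.60 and 2.41, and mt-Nd3 between -7.44 and -5.97.

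mt-Nd6 resembled the high-ratio genes in level, at 1.72 ± 0.21 in CM-KO hearts and 1.58 ± 0.22 in WT hearts, and differed between genotypes by 0.16 (adjusted p = 0.9995 by edgeR). mt-Nd3 stood far below all of them, at -6.52 ± 0.48 in CM-KO hearts and -7.18 ± 0.37 in WT hearts, and had the lowest ratio of all 15231 genes in WT hearts. It had 8171, 5999 and 7833 RNA counts in the CM-KO pools and 10974, 10103 and 11812 in the WT pools, but only 30, 26 and 73 footprint counts in the CM-KO pools and 33, 27 and 30 in the WT pools. mt-Nd4l had 0, 1 and 0 footprint counts in the CM-KO pools and 1, 0 and 0 in the WT pools, which was below the filter, so no test of its footprints was made. These are the 2 genes of the table with 99.1% and 100% of their 30-base windows copied in the nuclear genome. The first 30 bases of mt-Nd3 (chrM:9459-9806), printed because this is the gene with the extreme ratio and with its ATT start codon in capitals, are as follows.
mt-Nd3: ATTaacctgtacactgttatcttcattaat

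Within the summed counts of the 6 genes, mt-Co1 held a larger share of both RNA and footprints in every CM-KO pool than in any WT pool, and mt-Cytb a smaller share of both. The RNA shares of mt-Nd1 (20.1 to 21.3% in the CM-KO pools and 21.7 to 22.3% in the WT pools) and of mt-Nd2 (3.16 to 3.46% in the CM-KO pools and 3.64 to 4.68% in the WT pools) were also smaller without overlap. mt-Co1 made up 53.5% ± 2.4 of their RNA counts in CM-KO hearts and 48.0% ± 2.9 in WT hearts (SD, n = 3 each), and 27.4% ± 0.93 of their footprint counts in CM-KO hearts and 25.9% ± 0.41 in WT hearts. In footprints of mt-Co1, CM-KO pool 3 and WT pool 2 nearly met, at 26.33% and 26.32%. mt-Cytb made up 12.9% ± 1.2 of the RNA counts in CM-KO hearts and 15.4% ± 0.99 in WT hearts, and 26.8% ± 0.23 of the footprint counts in CM-KO hearts and 27.8% ± 0.35 in WT hearts. mt-Nd5 made up 7.27% ± 0.32 of the RNA counts in CM-KO hearts and 8.02% ± 0.82 in WT hearts, and 18.7% ± 0.32 of the footprint counts in CM-KO hearts and 19.9% ± 0.18 in WT hearts. Its pools overlapped in RNA and not in footprints. Shares within the 6 genes sum to a fixed total in each library, so a larger share of mt-Co1 lowers those of other genes. No test of these shares was made.

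The 6 genes moved together from pool to pool. Over the 15 pairs of genes, the correlation of log2 CPM across the 6 pools ranged from 0.96 to 1.00 in RNA and from 0.86 to 1.00 in footprints, as a description of libraries that share the genotype difference. Of 10493 nuclear genes compared in RNA, those whose pattern across pools was most like the mean of the 6 were Iftap, Nosip, Acta2, Ccdc14 and Rpl28, with Pearson's r of 0.99 to 1.00. Acta2, smooth muscle actin, ranged from 876 to 975 CPM in the CM-KO pools and from 1058 to 1229 CPM in the WT pools (log2 fold change -0.29, adjusted p = 0.0871 by edgeR), and the log2 fold changes of the other 4 were -0.10 to -0.33, none called. Of 9248 nuclear genes compared in footprints, the most alike were Rabl6, Cars2, Rtn1, Arhgef12 and Evl, with r of 0.96 to 0.98. Their log2 fold changes were -0.08 to -0.22, none called. Among so many genes, correlations this high over 6 pools can arise by chance. No chance level was computed in either assay, so these genes are only the top of a ranking.

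Nuclear-encoded subunits of the same complexes gave medians near 0 in RNA, where 4.37% of all genes tested were called in either direction and 3.57% as higher in CM-KO hearts. Of 34 nuclear complex I genes tested, 1 rose and 2 fell in CM-KO hearts (median log2 fold change 0.00). Ndufb9, an accessory subunit, rose to 41.9 CPM in CM-KO hearts, against 27.3 CPM in WT hearts (log2 fold change 0.61, adjusted p = 0.00182 by edgeR), and Ndufa5 and Ndufb11, also accessory subunits, each fell by 0.28 in log2 (adjusted p = 0.0334 and 0.0361 by edgeR). None of the 9 complex III genes, 14 complex IV genes or 16 complex V entries tested was called in RNA, with medians of -0.07, -0.03 and -0.01. The smallest p in these lists belonged to Uqcrq (0.25), Cox4i1 (0.24) and Atp5g1 (log2 fold change 0.55), with adjusted p-values of 0.0903, 0.0984 and 0.0900 by edgeR.

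In footprints none of the genes in these 4 lists was called. In the ratio, Ndufb9 alone was called among them, at a log2 fold change of -0.73 (adjusted p = 0.0107 by edgeR), with a log2 ratio of 0.59 in CM-KO hearts and 1.33 in WT hearts.

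**Figure D5:**
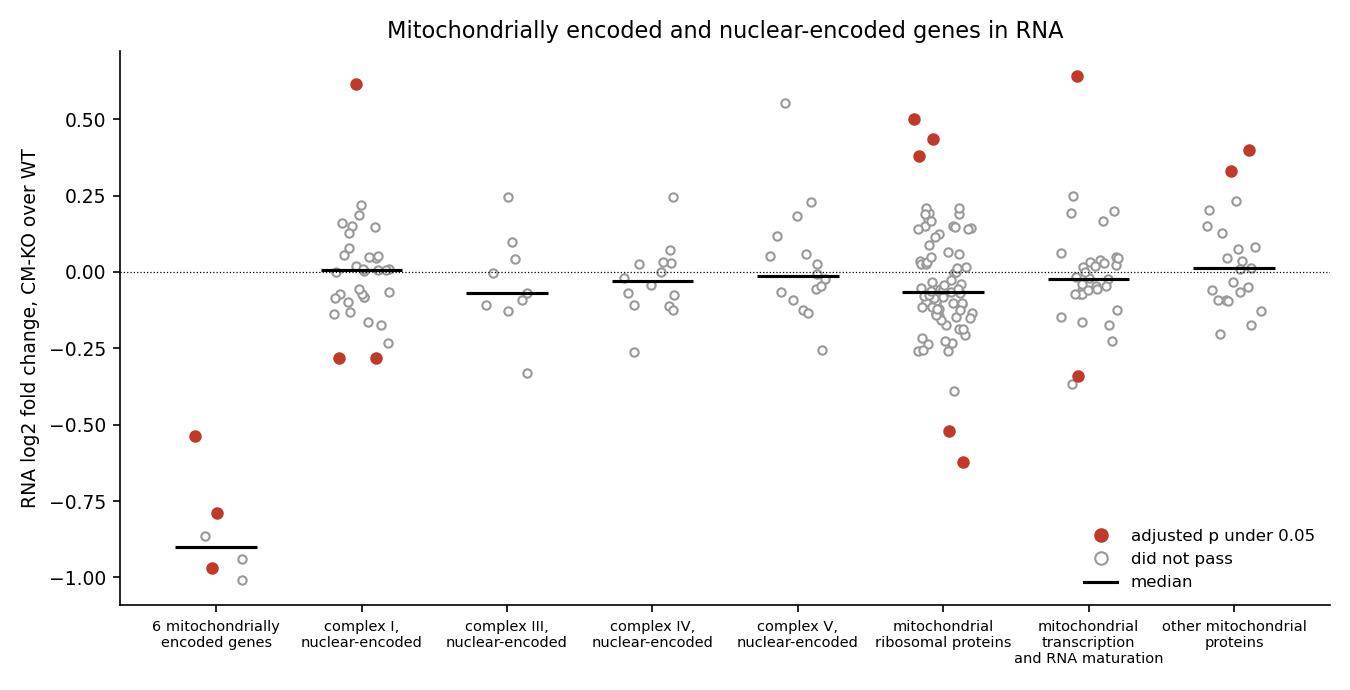
RNA log2 fold change of CM-KO over WT (vertical axis) for each tested gene of the 6 mitochondrially encoded genes and of 7 lists of nuclear-encoded mitochondrial genes (horizontal axis); red points passed at adjusted p under 0.05 and black lines are medians. The 6 genes lie between -1.01 and -0.54 with a median of -0.90, and the medians of the nuclear lists lie between -0.07 and 0.01.

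Genes that make, mature and translate mitochondrial RNA were counted in the same way, against 4.37% of all genes called in RNA in either direction. Of 34 genes of mitochondrial transcription and RNA maturation tested, Grsf1 rose and Slirp fell in RNA (median log2 fold change -0.02). Grsf1, which binds G-rich mitochondrial RNA in RNA granules, rose to 160.2 ± 8.0 CPM in CM-KO hearts, against 103 ± 8.8 CPM in WT hearts (SD, n = 3 each; log2 fold change 0.64, adjusted p = 0.00166 by edgeR). Its footprint-to-RNA ratio fell by 0.65 in log2 (adjusted p = 0.0112 by edgeR). Slirp, the partner of Lrpprc in keeping mitochondrial mRNAs stable, fell to 22.3 ± 1.7 CPM in CM-KO hearts, against 28.2 ± 0.82 CPM in WT hearts (log2 fold change -0.34, adjusted p = 0.0410 by edgeR).

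None of 16 genes of mitochondrial DNA upkeep, 20 mitochondrial translation factors or 17 mitochondrial aminoacyl-tRNA synthetases was called in RNA, with medians of 0.02, -0.09 and -0.04. The gene with the smallest p among the translation factors was Mrrf, the ribosome recycling factor (log2 fold change -0.30, adjusted p = 0.0521 by edgeR). Of 78 mitochondrial ribosomal protein genes, 3 rose and 2 fell in RNA (median -0.06). Mrpl42 and Mrpl47 fell, with log2 fold changes of -0.62 and -0.52, and Mrps30 and Mrpl12 were among those that rose, with log2 fold changes of 0.50 and 0.38 (adjusted p of 0.000948 to 0.0209 by edgeR). No gene of these lists was called in footprints.

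Among 22 other mitochondrial proteins, Tomm40, the import channel of the outer membrane, and Phb2, a prohibitin of the inner membrane, rose in RNA, with log2 fold changes of 0.40 and 0.33 (adjusted p = 0.0104 and 0.0405 by edgeR), and the median was 0.01. Of 9 regulators of mitochondrial biogenesis, Ppargc1a, the coactivator PGC-1alpha, fell to 67.1 CPM in CM-KO hearts, against 85.1 CPM in WT hearts (log2 fold change -0.34, adjusted p = 0.0180 by edgeR). Of 24 genes of the mitochondrial stress response, 4 rose in RNA (median 0.11), where 3.57% of all genes were called higher: Sesn2, a stress-induced regulator of growth signalling, Mthfd2, an enzyme of mitochondrial folate metabolism, Dele1, which relays mitochondrial stress to the cytosol, and the transcription factor Atf4. Their log2 fold changes were 0.92, 0.65, 0.39 and 0.37 (adjusted p of 0.00316 to 0.0300 by edgeR). The ratio of Dele1 fell by 1.17 in log2 (adjusted p = 0.0477 by edgeR). Its log2 ratio was -0.81 ± 0.01 in CM-KO hearts and 0.30 ± 0.59 in WT hearts (SD, n = 3 each), so the WT pools were widely spread. No gene of these 3 lists was called in footprints.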

How the data were processed

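RNA and ribosome footprints were measured in 3 CM-KO and 3 WT pools of 20 hearts each. Per the labels' protocols, both kinds of library were depleted of rRNA, and reads were processed against mm39 with the provider's own pipeline and counter. The aligner, the strand setting, the treatment of reads matching several places and any use of molecular identifiers were not given in the sources used here. Gene by gene, the deposited table gives raw counts of reads that the authors left without normalization. The log2 fold changes that the authors deposited, and the p-values they adjusted (DESeq2 for RNA, per the labels' protocols), served for comparison only. A further 18 columns of per-sample values were not used.

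A gene was blank in a pool unless its RNA or footprint count was at least 11, and 17165 genes had values in all 6 pools and were kept (4618 had a blank). Gene IDs were matched to GENCODE vM39 (21594 matched, 189 did not) for lengths and positions. Counts were tested with edgeR 4.0.16 (R 4.3.3; TMM factors, filterByExpr with a minimum count of 10 and total of 15, robust quasi-likelihood F-test), 3 pools against 3 within each assay, and as the interaction of genotype and assay over 12 libraries for the ratio. P-values were adjusted by Benjamini-Hochberg over all genes tested, with a threshold of 0.05. The script was tested on simulated data. Log2 ratios per pool used a prior count of 1. TPM used annotated gene length. Depth is given with the results. Among the mitochondrial genes, counts were low only for mt-Nd3 in footprints and for mt-Nd4l in both assays, and the reason was not tested. Within an assay, p-values measure the spread between pools. In the main ratio test the 12 libraries entered as separate samples, so its p-values do not use the pairing of libraries within a pool.

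RNA and footprint libraries of a pool share their hearts. Correlations of their departures from group means were 0.197 to 0.581 over 6216 genes, so the blocked ratio test is given beside the other. Pools of different genotype share only a number. The listed genes, pathway lists, markers and alternatives were chosen with earlier results of these data known. Named in the text are all listed genes, the other mitochondrial genes of the table, up to 4 called genes per list (for some lists without any, that with the smallest p), the 5 nuclear genes most alike in each assay and those overlapping nuclear copies. Alternatives covered scaling, filters, DESeq2 1.42.0, left-out pools, the replicate block, an Afp covariate, a joint fit, gene length and the denominator of shares.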

Additional observations from a re-analysis of the deposited data

How the results depend on the processing

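No log2 fold change of the 6 genes changed sign under any alternative, over 96 values in RNA (-1.19 to -0.41), 96 in footprints (-0.48 to -0.04) and 90 in the ratio (0.12 to 0.99). These values come from the same 12 libraries and are not separate checks of direction. In RNA no CM-KO pool of these genes overlapped a WT pool, so leaving pools out could hardly reverse the sign. Of 16 alternatives in RNA, mt-Nd1 passed in 13, mt-Cytb in 11, mt-Co1 in 8, mt-Nd2 and mt-Nd5 in 4 each and mt-Nd4 in 3. In place of 3 genes of the 6, RNA calls were 6 by DESeq2, 5 with all 12 libraries in 1 model, 0 with CM-KO pool 3 alone, 0 with the replicate block and 0 to 6 with a pool left out. In place of 0, footprint calls were 1 by DESeq2, and ratio calls were 2 by DESeq2 and 0 to 2 with a pool left out. Over all genes, RNA calls were 750, and 126 with CM-KO pool 3 alone, 367 with the replicate block, 294 with the Afp level as a covariate, 250 in the joint fit and 207 to 783 with a pool left out. Under upper quartile scaling 63.65% of the RNA calls were higher in CM-KO hearts, against 81.6% under TMM. Footprint calls were 35, and 60 under upper quartile scaling, 54 at a mean of at least 50 counts, 170 by DESeq2, 54 with CM-KO pool 3 alone, 203 with the replicate block, 5 with the Afp covariate, 80 in the joint fit and 1 to 94 with a pool left out. Ratio calls were 128, and 41 with DESeq2 size factors, 248 under upper quartile scaling, 282 at a mean of at least 50 counts, 82 by DESeq2, 5 with CM-KO pool 3 alone, 226 with the pool as a replicate block, 41 with the Afp covariate and 9 to 113 with a pool left out. The cause of these shifts was not tested. Pools with the same number in the 2 genotypes correlated in their deviations at 0.0412, 0.311 and -0.25 in RNA and at 0.318, 0.119 and 0.0865 in footprints, not over 0.1 in every pair of either assay, so the block by number was read as joining samples that share only a number.

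Signs changed for comparison genes only: mt-Nd4l RNA was -0.80 to 0.072 with a pool left out (0.072 without WT pool 1) and 0.16 with CM-KO pool 3 alone, mt-Nd3 footprints -0.020 to 0.51 with a pool left out (-0.020 without CM-KO pool 3), and the mt-Nd6 ratio -0.13 with CM-KO pool 3 alone; none of the 3 was called. An alternative added after seeing the data divided counts by the number of 30-base windows with no nuclear copy. It presumes that reads matching nuclear copies were not counted, and by it mt-Nd3 RNA would reach 666892 TPM in CM-KO hearts. RNA levels were then 99686 (CM-KO) and 142384 (WT) TPM for mt-Co1, 4459 and 8381 for mt-Nd4, and 3845 and 4908 in CM-KO hearts for mt-Nd2 and mt-Nd5. Footprint levels, CM-KO first, were 26850.2 and 32791 TPM for mt-Co1, 13557 and 18189 for mt-Cytb, 6631 and 9097 for mt-Nd5, 5897 and 7567 for mt-Nd2, and 5517 and 7116 for mt-Nd4.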
